A study of Mus musculus with 18 samples.

Results

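The 7 genes examined here encode the core of the microRNA silencing machinery of the mouse, namely the Argonautes Ago1, Ago2, Ago3 and Ago4 and their partners Tnrc6a, Tnrc6b and Tnrc6c. They were chosen by name, as the complete sets of both families, and all 7 were found among the 51499 loci of the deposited RNA sequencing table. An Argonaute protein carries a small RNA and is guided by it to complementary mRNAs. Ago2 is the member known for slicing its target. Argonautes also act by recruiting a TNRC6 protein (also called GW182), which brings the enzymes that shorten the poly(A) tail and remove the cap. Embryonic fibroblasts, like most somatic cells, use this machinery to repress a large part of their transcriptome.

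The cells were mouse embryonic fibroblasts labelled either Ago2+/+ or Ago2-/-. Cells of each label were given the solvent DMSO, tunicamycin, which blocks N-glycosylation in the endoplasmic reticulum (ER), or 500 nM thapsigargin, which depletes ER calcium. Each of the resulting 6 groups held 3 libraries of total RNA, 18 in all. The study asked with them whether AGO2 takes part in the turnover of mRNAs under ER stress. Per the methods of the study, both genotypes were cell cultures obtained as a gift, so that genotype and culture cannot be told apart. The libraries labelled Ago2+/+ are named DCR1 in their titles, and the labels of 4 of the 18 libraries contradict each other on genotype (replicate 2 of each group labelled Ago2+/+ and replicate 3 of Ago2-/- DMSO). Levels are given in FPKM (fragment counts normalised to transcript length and sequencing output). The deposited table gives 1 value per group, which the authors made over its 3 libraries, so no value below has a replicate error, no difference could be tested, and the depth is unknown. Neighbouring levels in any order given below can therefore not be separated from replicate spread.

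Before the members are described, the labels themselves need a check, because the groups that resembled each other did not share a label. Over the 11929 loci whose 6 levels averaged 1 FPKM or more, 3 pairs of groups resembled each other far more than the other 12 of the 15 pairs, and each of these pairs crossed both genotype and treatment. The pairs were Ago2+/+ DMSO with Ago2-/- thapsigargin (Spearman's rho 0.977), Ago2+/+ tunicamycin with Ago2-/- DMSO (rho 0.985) and Ago2+/+ thapsigargin with Ago2-/- tunicamycin (rho 0.985), against rho between 0.876 and 0.906 for the other 12. Within the 3 pairs between 1.83% and 4.11% of loci differed at least 2-fold, against 19.1% to 24.9% in the others. Of the Y-linked genes, Uty, Kdm5d, Ddx3y and Eif2s3y had no signal (0 FPKM) in 4 groups but 6.03 to 32.3 FPKM in the groups labelled Ago2+/+ thapsigargin and Ago2-/- tunicamycin. The locus of Xist, the RNA that silences an X chromosome in female cells, stood at 46.6 FPKM in Ago2+/+ DMSO and 33.5 in Ago2-/- thapsigargin, and at 0.0574 or less elsewhere. A pair of genes of the ER stress response, picked as a check of the treatments after their values had been seen, were higher with either stressor than with DMSO under the label Ago2+/+. There, in the order DMSO, tunicamycin, thapsigargin, Hspa5, which encodes the ER chaperone BiP, stood at 4808, 6746 and 5367 FPKM, and the stress-induced transcription factor gene Ddit3 at 237, 282 and 345. Under the label Ago2-/- Hspa5 was highest with DMSO, at 7682, 5155 and 3677 FPKM, and Ddit3 stood at 339, 349 and 253. Of 11 fibroblast markers 6 reached 1 FPKM in every group, among them Vim at 952 to 2634 FPKM, whereas Thy1 was listed at 0 in all 6 groups and Lum did not exceed 0.0138 FPKM. The 11 fibroblast markers summed to 3000 to 3956 FPKM in a group. In bulk RNA, fewer cells of a type and less RNA per cell cannot be told apart. Markers of other cell types were near 0, with summed levels of 1.17 to 1.89 FPKM for 5 haematopoietic, 0.189 to 1.34 for 5 epithelial and 0.121 to 0.465 for 4 endothelial genes, and Adgre1 and Cd3e were listed at 0 throughout. Every group is therefore called by its label only, and the part of a mix-up of labels in the differences below was not tested.

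The Argonautes fall into a cluster and a lone gene. Ago3, Ago1 and Ago4 lie next to each other on the minus strand of chromosome 4 (GRCm38), at 126331704 to 126429556, 126435012 to 126468583 and 126489541 to 126533472, with 5455 bases between Ago3 and Ago1 and 20957 between Ago1 and Ago4. Ago2 lies apart from them on chromosome 15, where the annotation places it at 73095844 to 73184935 on the minus strand. Its last 1711 bases overlap Chrac1, a gene of a chromatin remodelling complex on the opposite strand. The TNRC6 genes are on 3 chromosomes, all on the plus strand: Tnrc6a on chromosome 7 (123123885 to 123195296), Tnrc6b on chromosome 15 (80711313 to 80941085) and Tnrc6c on chromosome 11 (117654289 to 117763439). The quantified locus of Tnrc6a pools it with the noncoding genes Gm45846 and Gm45847, and that of Tnrc6b also holds the microRNA gene Mir5113, so their values are of the pooled loci.

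RefSeq promoters (GRCm38.p6) were at hand for 6 of the 7 members, and the 250 bases before the start site are shown for 5 of them, because Ago1 and Ago4 were highest in the same groups and so were the 3 TNRC6 genes. Capitals mark CCAAT boxes and GC boxes (GGGCGG), each searched on both strands, so that they also appear as ATTGG and CCGCCC, and neighbouring matches can overlap. The windows are chr4:126468584-126468833 (minus strand), chr4:126533459-126533708 (minus), chr7:123123635-123123884 (plus), chr15:80711063-80711312 (plus) and chr11:117654039-117654288 (plus), in this order. The windows shown for Ago1 and Tnrc6b are 1 of 2 entries each.
Ago1: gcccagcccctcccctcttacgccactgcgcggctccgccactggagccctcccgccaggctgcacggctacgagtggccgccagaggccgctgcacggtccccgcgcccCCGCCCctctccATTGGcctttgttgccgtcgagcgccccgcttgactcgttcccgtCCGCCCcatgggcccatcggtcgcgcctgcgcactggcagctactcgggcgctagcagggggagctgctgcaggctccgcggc
Ago4: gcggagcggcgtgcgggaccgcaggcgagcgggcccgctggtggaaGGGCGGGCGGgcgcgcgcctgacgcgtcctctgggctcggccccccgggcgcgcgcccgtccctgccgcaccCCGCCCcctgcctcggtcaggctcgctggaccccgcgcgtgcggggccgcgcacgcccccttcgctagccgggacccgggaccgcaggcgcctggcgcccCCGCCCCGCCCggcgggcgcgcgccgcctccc
Tnrc6a: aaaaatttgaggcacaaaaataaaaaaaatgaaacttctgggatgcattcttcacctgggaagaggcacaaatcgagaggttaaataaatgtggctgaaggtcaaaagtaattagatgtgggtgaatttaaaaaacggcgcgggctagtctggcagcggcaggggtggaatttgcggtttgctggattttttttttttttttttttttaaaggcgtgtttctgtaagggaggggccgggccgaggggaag
Tnrc6b: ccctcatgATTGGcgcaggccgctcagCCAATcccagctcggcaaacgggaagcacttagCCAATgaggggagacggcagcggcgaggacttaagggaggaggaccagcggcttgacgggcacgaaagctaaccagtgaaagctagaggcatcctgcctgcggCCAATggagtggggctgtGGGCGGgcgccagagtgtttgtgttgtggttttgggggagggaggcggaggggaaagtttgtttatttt
Tnrc6c: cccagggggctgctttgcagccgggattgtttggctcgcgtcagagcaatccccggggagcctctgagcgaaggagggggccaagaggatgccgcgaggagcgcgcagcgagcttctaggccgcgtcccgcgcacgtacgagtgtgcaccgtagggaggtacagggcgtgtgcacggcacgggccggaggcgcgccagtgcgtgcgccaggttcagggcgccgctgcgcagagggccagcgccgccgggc

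The Ago1 and Ago4 windows were both rich in CpG dinucleotides and held GC boxes, whereas the TNRC6 windows differed from each other. Ago4 had 46 CpG dinucleotides and 85.6% G or C, with 5 GC boxes, against a median of 6 CpG and 52.4% over all 32851 promoter windows. The Ago1 window shown had 28 CpG and 74.4%, with 2 GC boxes and 1 CCAAT box. The Ago3 window, not shown, had 27 CpG and 73.6%, with 4 GC boxes, so these traits were not particular to Ago1 and Ago4. Among the TNRC6 genes, Tnrc6a had 9 CpG and 42.4% G or C and neither box, Tnrc6c had 31 CpG and 72.4% and neither box, and the Tnrc6b window shown had 14 CpG with 4 CCAAT boxes and 1 GC box. The other Tnrc6b entry had 8 CpG and 48% G or C and neither box, closer to Tnrc6a. A CCAAT box occurred in 33.8% and a GC box in 32.7% of all windows. None of the member windows held TATAAA (12.4% of all windows), the ER stress element (CCAAT and CCACG spaced by 9 bases, 0.113%), TGACGTGG (0.563%), TTNCATCA (3.45%) or TGACGTCA (1.55%), the last 3 being letters associated with XBP1, ATF4 and CREB-family factors.

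Ago2, the slicer, differed most among the groups of the 6 members that reached 1 FPKM. From the lowest, its level was 5.61 FPKM in Ago2-/- DMSO, 5.75 in Ago2+/+ tunicamycin, 15.5 in Ago2-/- tunicamycin, 17.0 in Ago2+/+ thapsigargin, 20.7 in Ago2-/- thapsigargin and 22.1 in Ago2+/+ DMSO. Thus 2 groups were low and 4 were high, with no level between 5.75 and 15.5, and each genotype label held 1 low and 2 high groups. The highest level was 3.94 times the lowest, a wider range than that of 83.3% of loci, whose median was 1.74. No group labelled Ago2-/- lacked Ago2 RNA, although a gene level says nothing of which part of the transcript was read. These levels are of RNA, not protein, and the study reports a western blot check of its Ago2-/- cells for missing AGO2 protein. The fibroblast markers were not uniform in the groups low in Ago2. Col1a1, Col1a2, Col3a1 and Pdgfra were also lowest there, as with Col1a1 at 5.97 FPKM in Ago2-/- DMSO and 6.77 in Ago2+/+ tunicamycin against 87.1 to 651 in the other 4. Vim was highest there, at 2580 and 2634 FPKM against 952 to 1439, and Fn1, Pdgfrb and S100a4 were neither. The part of these differences in that of Ago2 was not tested. The table lists Ago2 and Chrac1 as separate loci with a value each but gives both the same region, 73090392 to 73184840, which spans all of Chrac1. Without strand, reads from their overlap cannot be told apart. Chrac1 ranged from 29.3 to 36.7 FPKM, above Ago2 in every group. Of the 50-base stretches in annotated Ago2 transcripts, 2.2% also occur in other genes, mostly in Gm6088 (259 stretches), which stayed at 0.195 FPKM or less.

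Ago1 and Ago3, the other Argonautes above 1 FPKM, differed within narrower limits and were highest in other groups than Ago2. In the order DMSO, tunicamycin, thapsigargin, Ago1 stood at 8.28, 10.7 and 13.8 FPKM with the label Ago2+/+ and at 10.1, 14.9 and 8.30 FPKM with the label Ago2-/-. It was thus highest in Ago2-/- tunicamycin and Ago2+/+ thapsigargin, and its highest level was 1.80 times its lowest. In the same order of treatments, Ago3 stood at 6.47, 8.72 and 8.94 FPKM (Ago2+/+) and at 7.31, 7.34 and 5.36 FPKM (Ago2-/-), with a ratio of 1.67. These ranges were ordinary, being wider than those of 52.6% (Ago1) and 44.1% (Ago3) of loci. Annotated Ago1 and Ago3 transcripts share few 50-base stretches with other members (1.53% and 0.731%), so that few of their reads could be assigned to the wrong member.

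Ago4, the least abundant Argonaute, was low everywhere. From the highest, it was at 0.933 FPKM in Ago2-/- tunicamycin, 0.890 in Ago2+/+ thapsigargin, 0.0751 in Ago2+/+ tunicamycin, 0.0414 in Ago2-/- DMSO and 0.00379 in Ago2-/- thapsigargin, and it was listed at 0 in Ago2+/+ DMSO. The groups labelled Ago2+/+ thapsigargin and Ago2-/- tunicamycin, in which Ago1 was also highest, stood apart from the other 4. Because it never reached 1 FPKM, Ago4 entered none of the 7 comparisons, and no fold is given against a level of 0.

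The TNRC6 genes were highest in the same 2 groups. Tnrc6a, the most abundant member in each group except Ago2+/+ DMSO, where Ago2 was slightly above it, stood at 21.9, 45.3 and 20.8 FPKM (Ago2+/+; DMSO, tunicamycin, thapsigargin) and at 40.6, 20.1 and 21.5 FPKM (Ago2-/-). Tnrc6c stood at 12.3, 18.6 and 9.96 FPKM and at 18.5, 10.4 and 12.3. Tnrc6b varied least, at 10.8, 14.4 and 9.46 FPKM and at 12.8, 10.0 and 10.3. All 3 genes had their highest level in Ago2+/+ tunicamycin and the next in Ago2-/- DMSO, the groups in which Ago2 was lowest, whereas the order of the other 4 groups differed between them. This was not particular to the TNRC6 genes, since these 2 groups form a close pair over all loci. Drosha and Xpo5, of microRNA processing, were also highest in them. The highest level was 2.25 times the lowest for Tnrc6a, 1.87 times for Tnrc6c and 1.52 times for Tnrc6b, ranges wider than those of 68.9%, 56.3% and 33.2% of loci. No 50-base stretch is shared between annotated transcripts of TNRC6 genes and other members.

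**Figure D1:**
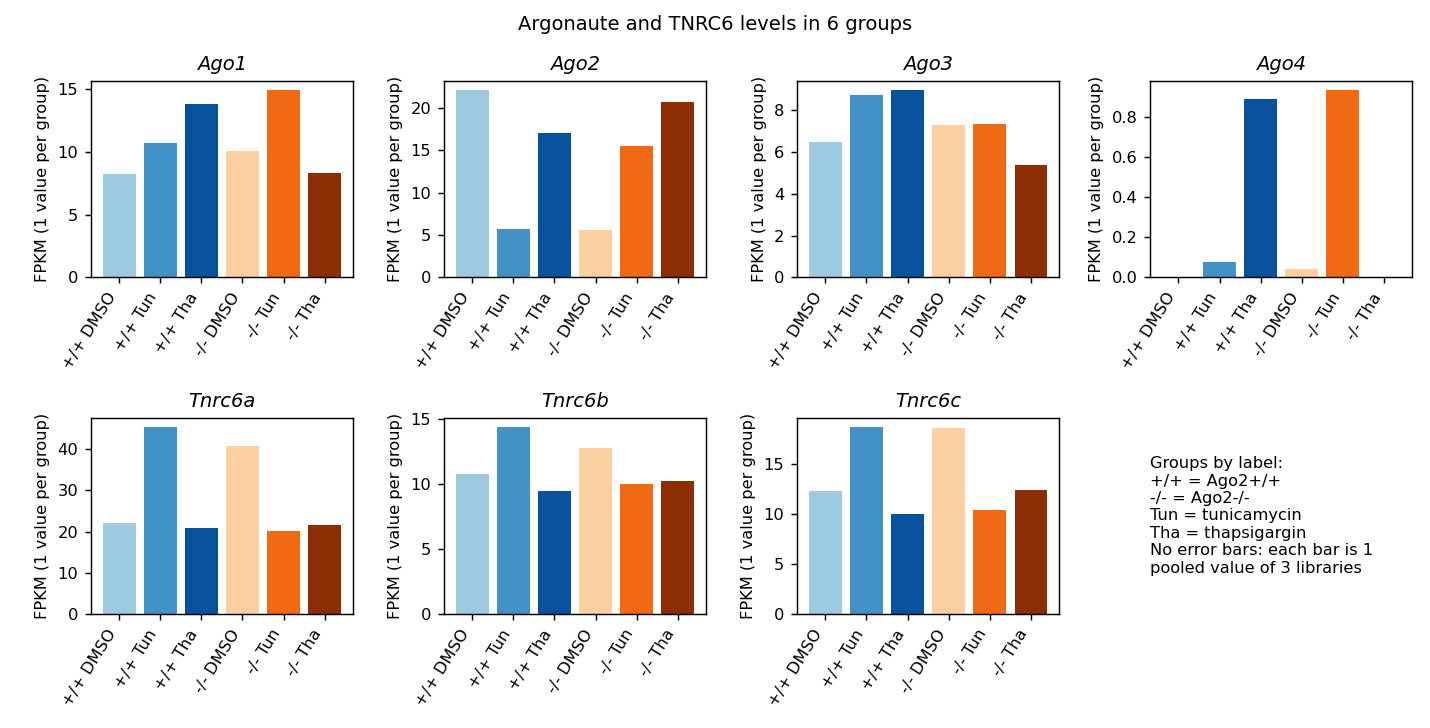
Level of each member (vertical axes, FPKM, each from 0) in the 6 groups named by their labels (horizontal axes). Each bar is 1 value per group, made by the authors over 3 libraries, hence without error bars. Ago2 was low at 5.75 and 5.61 FPKM in Ago2+/+ tunicamycin and Ago2-/- DMSO, where Tnrc6a, Tnrc6b and Tnrc6c were highest, and Ago4 stayed below 1 FPKM.

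Within the 3 close pairs of groups the members, like loci in general, differed little. In the order in which the pairs are given next, the median absolute log2 ratio was 0.049, 0.123 and 0.096 over the members. Over all loci it was 0.173, 0.091 and 0.121. The member farthest apart was Ago3 in each pair, with folds of 1.20 (Ago2+/+ DMSO and Ago2-/- thapsigargin), 1.19 (Ago2+/+ tunicamycin and Ago2-/- DMSO) and 1.22 (Ago2+/+ thapsigargin and Ago2-/- tunicamycin), all on the FPKM + 0.1 scale and with Ago4 left out. The patterns of the members across 6 groups thus rest on 3 pairs of like groups.

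The makeup of the Argonaute pool differed accordingly. FPKM is scaled for transcript length, so that shares of a family can be compared between genes. Ago2 gave 60.0% of the summed Argonaute FPKM in Ago2+/+ DMSO and 60.2% in Ago2-/- thapsigargin, 41.8% and 40.1% in Ago2+/+ thapsigargin and Ago2-/- tunicamycin, but 22.8% and 24.4% in Ago2+/+ tunicamycin and Ago2-/- DMSO. In those last 2 groups Ago1 took the leading place with 42.4% and 43.7%, and Ago3 followed with 34.5% and 31.8%. Ago4 did not exceed 2.41% anywhere. The sum of all 4 Argonautes was 23.0 to 25.3 FPKM in the 2 groups low in Ago2 and 34.4 to 40.7 in the other 4. After the values of each group were rescaled to the same total (TPM), it was 36.3 and 39.2 against 58.8 to 68.9. Without Ago2 the sum ran from 13.7 to 23.6 FPKM and did not separate these groups, since the 2 groups low in Ago2 lay within that range at 19.5 and 17.4.

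The TNRC6 pool went the other way. It summed to 78.3 FPKM in Ago2+/+ tunicamycin and 72.0 in Ago2-/- DMSO, and to 40.2 to 45.0 in the other 4 groups, or to 122 and 113 against 65.3 to 79.1 after the TPM rescaling. Tnrc6a made up 48.7% to 57.8% of it in all 6 groups, so its makeup differed less than its size. Summed TNRC6 was 3.10 and 3.13 times summed Argonaute FPKM in the 2 groups low in Ago2, and 0.989 to 1.29 times in the others. The ratio of Tnrc6a to Ago2 was 7.87 and 7.25 in the same 2 groups and 0.993 to 1.3 elsewhere.

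**Figure D2:**
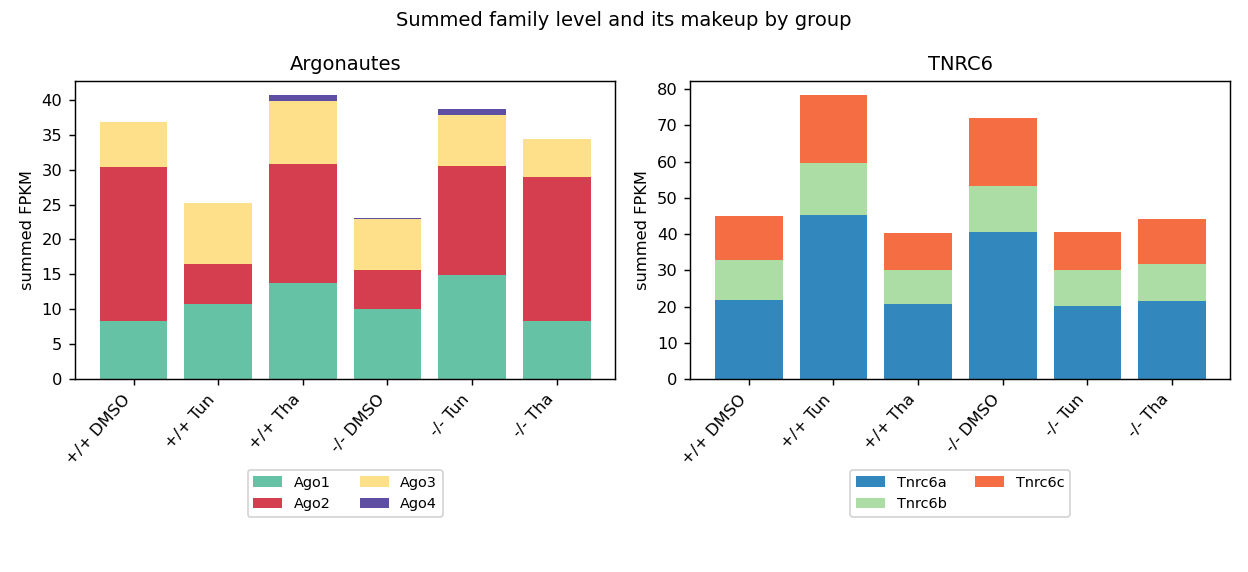
Summed FPKM of the 4 Argonautes (left) and of the 3 TNRC6 genes (right) in each labelled group, with each gene as a coloured segment of the bar and without error bars. The Argonaute sum was lowest in Ago2-/- DMSO (23.0 FPKM) and the TNRC6 sum highest in Ago2+/+ tunicamycin (78.3 FPKM).

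Each comparison of the design was then read for the members as a log2 ratio of FPKM + 0.1, over loci with at least 1 FPKM in either group, and a difference of at least 2-fold was counted. Folds given for members are ratios of the FPKM as deposited. Comparisons that share a group, such as both stressors against 1 DMSO group, are not independent of each other. With tunicamycin against DMSO in the groups labelled Ago2+/+, 2 of the 6 members that passed the filter differed 2-fold, where 20.0% of 12257 loci did (10.7% higher, 9.31% lower). Ago2 was 3.84-fold lower under tunicamycin (log2 ratio -1.92) and Tnrc6a 2.06-fold higher (1.04). The log2 ratio was 0.60 for Tnrc6c, 0.41 for Tnrc6b, 0.43 for Ago3 and 0.37 for Ago1. The median absolute log2 ratio was 0.51 over the 6 members and 0.39 over all loci, and over the 7 comparisons it ran from 0.29 to 0.70 and from 0.38 to 0.50.

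The same comparison in the groups labelled Ago2-/- had the opposite sign for Ago2 and for all 3 TNRC6 genes. Ago2+/+ tunicamycin and Ago2-/- DMSO, a close pair over all loci (rho 0.985), stand on opposite sides of the ratio in these comparisons. A locus with its highest or its lowest levels in this pair therefore changes sign by construction. The share of all loci that changed sign was not counted. Ago2 was 2.77-fold higher under tunicamycin (log2 ratio 1.45), and Tnrc6a was 2.02-fold lower (-1.01). Of 12399 loci 24.9% differed 2-fold (13.2% higher, 11.7% lower), and so did 2 of 6 members. The log2 ratio was -0.83 for Tnrc6c, -0.35 for Tnrc6b, 0.57 for Ago1 and 0.01 for Ago3. The 2-fold count of Tnrc6a is borderline. After the TPM rescaling its log2 ratio was 0.86 in the groups labelled Ago2+/+ and -0.84 in those labelled Ago2-/-, short of 2-fold in both.

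Thapsigargin against DMSO gave smaller differences in the groups labelled Ago2+/+. None of the 6 members differed 2-fold, where 19.1% of 12236 loci did (10.3% higher, 8.71% lower). Ago1 had the largest log2 ratio at 0.73, followed by Ago3 at 0.46, and Ago2 stood at -0.38. The TNRC6 genes lay between -0.30 (Tnrc6c) and -0.08 (Tnrc6a). In the groups labelled Ago2-/-, where 20.4% of 12274 loci differed 2-fold (9.43% higher, 10.9% lower), Ago2 alone of 6 members did so, being 3.69-fold higher under thapsigargin (log2 ratio 1.87). Tnrc6a stood at -0.91, Tnrc6c at -0.58, Tnrc6b at -0.31, Ago3 at -0.44 and Ago1 at -0.27.

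Between the genotype labels, the sign of the Ago2 difference was not the same under each treatment label. Here too the close pair of Ago2-/- DMSO and Ago2+/+ tunicamycin stands on opposite sides of the ratio, under DMSO and under tunicamycin. Under DMSO Ago2 was 3.94-fold lower in the group labelled Ago2-/- (log2 ratio -1.96) and was the only member past 2-fold, where 20.0% of 12246 loci were (10.6% higher, 9.42% lower). Tnrc6a stood at 0.89 and Tnrc6c at 0.59, while Ago1, Tnrc6b and Ago3 lay between 0.17 and 0.28. Under tunicamycin Ago2 was 2.70-fold higher in the group labelled Ago2-/- (1.42) and Tnrc6a 2.25-fold lower (-1.16, or -0.97 after rescaling to TPM), which makes 2 of 6 members beside 24.3% of 12405 loci (13.1% higher, 11.2% lower). Tnrc6c stood at -0.84, Tnrc6b at -0.52, Ago3 at -0.24 and Ago1 at 0.48. Under thapsigargin none of 6 members differed 2-fold, where 19.6% of 12251 loci did (8.64% higher, 10.9% lower). Ago1 and Ago3 both stood at -0.73 there, and Ago2 at 0.28.

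**Figure D3:**
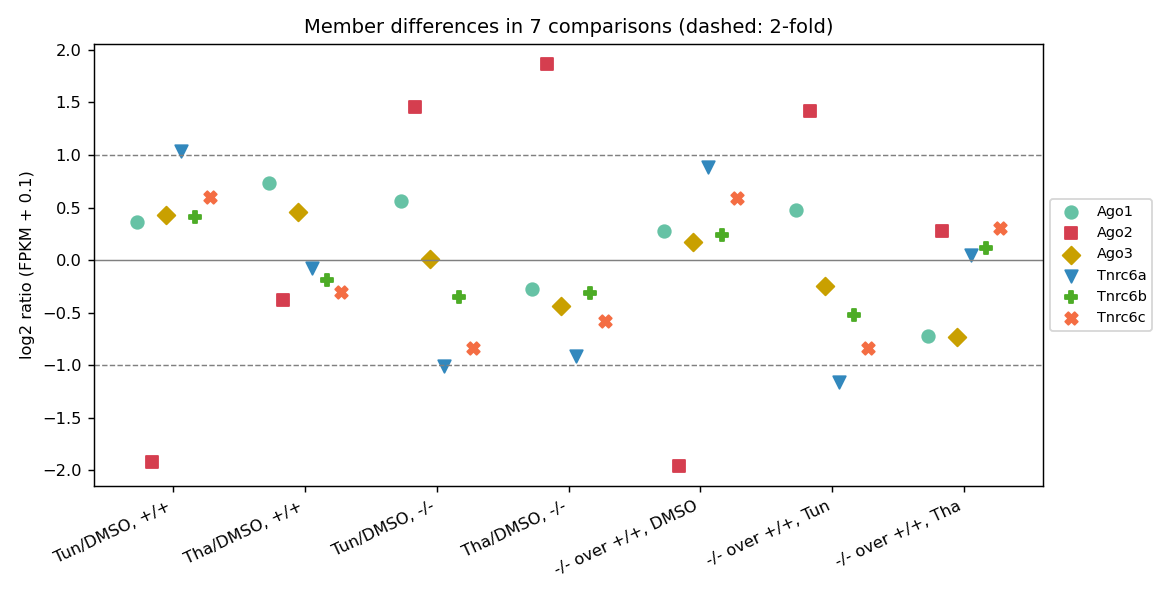
Log2 ratio of FPKM + 0.1 (vertical axis) of 6 members in the 7 comparisons (horizontal axis), 1 point per member, with 2-fold as dashed lines. Ago4 is left out because it never reached 1 FPKM. Ago2 ran from -1.96 to 1.87, and Tnrc6a was the only other member past a dashed line.

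The other genes of the pathway, 53 on 7 lists, were read in the same way. In each comparison 48 passed the filter, and between 1 and 3 of them differed 2-fold, or 2.08% to 6.25%, where 19.1% to 24.9% of all loci did. The listed genes and all loci were not matched for level, so the lower share is not read as a trait of the pathway. Of the 5 microRNA processing genes that passed, none differed 2-fold in any comparison, and their median log2 ratio ran from -0.39 to 0.39 over the 7 comparisons, where that of all loci ran from -0.03 to 0.01. Dicer1, which cuts microRNA precursors, ranged from 17.5 to 32.7 FPKM, and the nuclear exporter Xpo5 from 44.1 to 74.7. Dgcr8, the partner of Drosha in the nuclear step, was listed at 0 in all 6 groups. Its locus holds 3 Ensembl gene identifiers, and whether the 0 reflects absent RNA or the quantification of that locus was not tested. Of the germline PIWI genes Piwil1 was listed at 0 in all 6 groups, and no member of that list of 3 reached 1 FPKM.

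Downstream of TNRC6, the 13 deadenylase genes had median log2 ratios between -0.16 and 0.23. Only Cnot11, a subunit of the CCR4-NOT complex, passed 2-fold, and only in thapsigargin Ago2-/- over Ago2+/+ (32.1 against 15.7 FPKM, 2.04-fold on the FPKM + 0.1 scale). The 12 genes of decapping and decay had medians between -0.09 and 0.06. Among them Dcp1b, a cofactor of the decapping enzyme, had 1.17, 0.514 and 2.86 FPKM with the label Ago2+/+ (DMSO, tunicamycin, thapsigargin) and 0.718, 3.57 and 1.37 FPKM with the label Ago2-/-. It passed 2-fold in 5 of the 7 comparisons, at levels near the filter. Dcp2, the decapping enzyme itself, was 2.02-fold lower in Ago2-/- thapsigargin than in Ago2-/- DMSO (11.6 against 23.4 FPKM). Neither of 2 poly(A)-binding protein genes and none of 8 chaperones that load Argonautes passed 2-fold in any comparison, with medians from -0.29 to 0.10 and from -0.28 to 0.29.

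Among the 9 cofactors and regulators of Argonaute turnover, P4ha1 and Ajuba passed 2-fold, and the medians of the list ran from -0.17 to 0.39. P4ha1 encodes the catalytic subunit of the prolyl hydroxylase known to modify and stabilise AGO2. In the order DMSO, tunicamycin, thapsigargin, its level was 57.5, 22.6 and 64.0 FPKM with the label Ago2+/+ and 27.2, 75.8 and 61.3 FPKM with the label Ago2-/-. It was thus lowest in the 2 groups in which Ago2 was lowest, which form a close pair over all loci. This was not particular to P4ha1. Cnot6 and Xrn1 of the other lists were also lowest in these 2 groups, and Drosha and Xpo5 were highest in them. In the same order P4hb, also on this list, stood at 375, 518 and 571 FPKM and at 508, 605 and 298, and so was lowest elsewhere. A link of P4ha1 to Ago2 was not tested. Ajuba, a LIM protein of processing bodies, stood at 30.5, 79.8 and 59.2 FPKM and at 63.8, 51.6 and 27.1, lowest in the close pair Ago2+/+ DMSO and Ago2-/- thapsigargin.

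**Figure D4:**
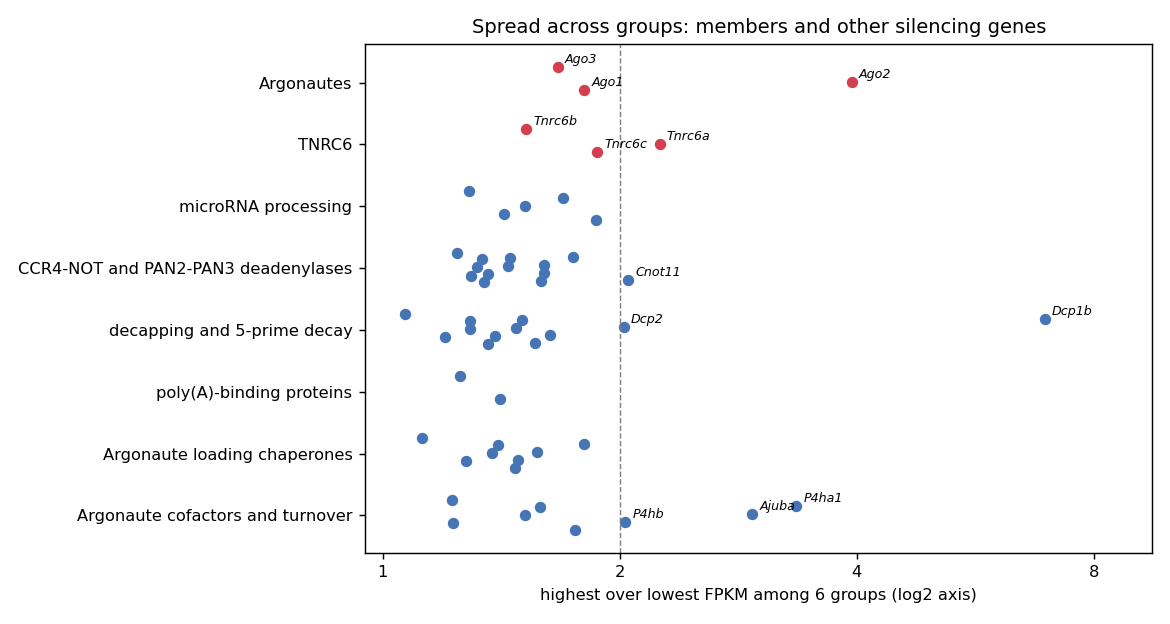
Highest over lowest FPKM among the 6 groups (horizontal axis, log2 scale) for each gene at or above 1 FPKM in at least 1 group and above 0 in all, in rows by list, with the members in red and the other pathway genes in blue; the dashed line is 2-fold. Ago2 (3.94) and Tnrc6a (2.25) lie right of the line, and Dcp1b (6.94) has the widest range of the genes plotted.

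Loci whose pattern was nearest to that of a member were found by the root mean square (RMS) difference of log2(FPKM + 0.1), centred on each gene's mean, over the 6 groups and about 11184 other loci. Nearest to Ago2 were Fancl, of the Fanconi anaemia pathway (RMS 0.11), Gm3608 (0.12) and Tmem38a, a membrane channel (0.12), where the median locus lay at 0.88. In the order DMSO, tunicamycin, thapsigargin, Fancl stood at 13.6, 2.90 and 10.1 FPKM (Ago2+/+) and at 3.18, 8.97 and 13.5 FPKM (Ago2-/-). Nearest to Tnrc6a were Arl14ep, Ctsa, a lysosomal protease, and Flvcr1, a transporter (0.05 to 0.07, median locus 0.58). Among the 3 nearest to Tnrc6c were Pnkd and Gemin8 (0.05 each), and nearest to Tnrc6b were Aspm, of the mitotic spindle, BC055324 and Retreg2 (0.03 to 0.04). Nearest to Ago1 were Erbin, Zbtb24 and the ER isomerase Ppib (0.05 each), to Ago3 Mfn2, of mitochondrial fusion, Porcn and Spryd3 (0.06 to 0.08), and to Ago4 the phosphodiesterase Pde4b, Rab32 and the channel Ano1 (0.19 to 0.27). Because Ago4 stayed below 1 FPKM, its pattern depends on the added 0.1. None of its 3 loci was named again with Pearson's correlation or with 1 added in place of 0.1. The choice depended on the measure, since with Pearson's correlation only 3 of the 21 loci were named again. A correlation of 0.95 or more was reached with Ago2 by 575 loci (5.14%), the most of any member, and with Tnrc6a by 543 (4.85%). With Ago3 it was reached by 15 (0.134%), the fewest.

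**Figure D5:**
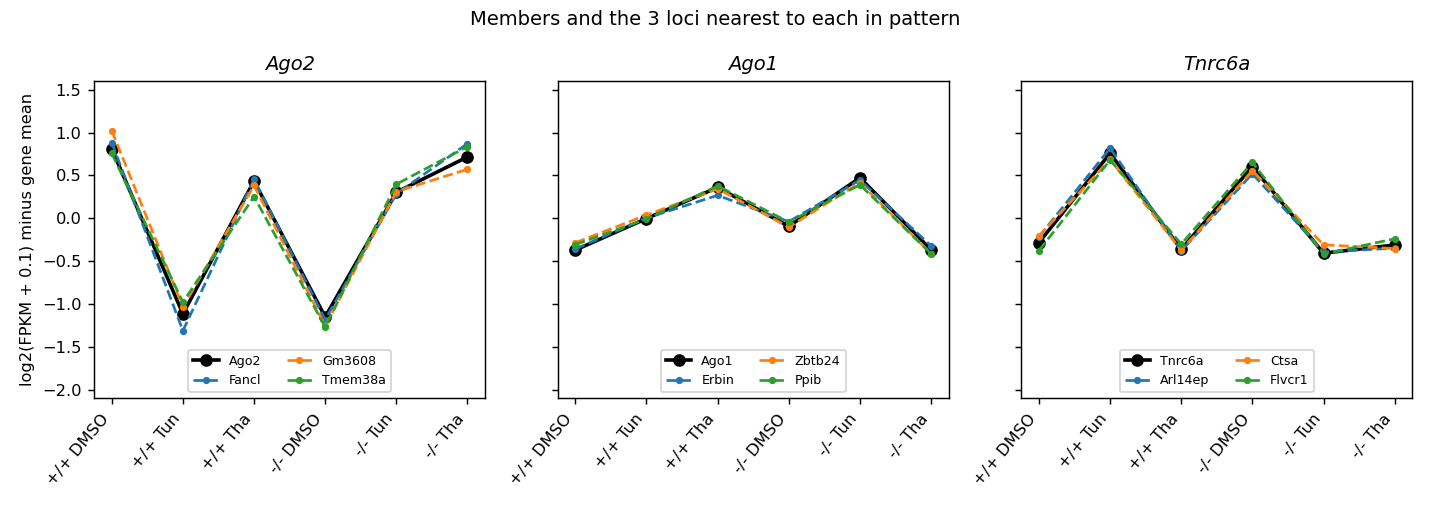
Mean-centred log2(FPKM + 0.1) (vertical axis) of Ago2, Ago1 and Tnrc6a (black) and of the 3 loci nearest to each (dashed) in the 6 labelled groups (horizontal axis), 1 value per group. Fancl, Gm3608 and Tmem38a were, like Ago2, low in Ago2+/+ tunicamycin and Ago2-/- DMSO, and Arl14ep, Ctsa and Flvcr1 were, like Tnrc6a, high there.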

How the data were processed

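Total RNA of 18 libraries in 6 groups of 3 was sequenced. Per the methods of the study and the submitters' processing notes, the authors checked reads with FastQC 0.11.7, aligned them with HISAT2 2.1.0 (GRCm38, Ensembl annotation), assembled transcripts with StringTie 1.3.4d and quantified them with Cuffdiff 2.2.1. The deposited FPKM are 1 value per group and locus, normalized by the authors for transcript length and mapped fragments; of library scaling, strandedness and depth nothing is stated in these sources. The table also holds the authors' own comparisons (log2 fold change, test statistic, p, q and a significance mark), which were not used. With 1 pooled value per group no test was run. Libraries were grouped by their titles.

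Ratios were log2((FPKM + 0.1)/(FPKM + 0.1)), read over loci with at least 1 FPKM in either group and counted at 2-fold, with Python 3.11.15, pandas 2.3.3, numpy 2.4.6 and matplotlib 3.10.9. The script that counts 2-fold differences was checked on simulated data. Genes named are the 7 members, genes of the lists past 2-fold, the 3 loci nearest to each member and 5 sex-linked genes. Chosen after their values were seen were Hspa5, Ddit3, Chrac1, Gm6088, Dicer1, Xpo5, Drosha, Cnot6, Xrn1, P4hb and the markers and PIWI or processing genes given by level. Members and lists were chosen with earlier results of these data known. Coordinates and overlaps are those of the table and of GENCODE release M21, and promoters those of RefSeq (GRCm38.p6). A marker gene and a locus near Tnrc6c in pattern are not reported here.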

Additional observations from a re-analysis of the deposited data

Results flagged for a closer look

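Members whose difference passed 2-fold in opposite directions were looked for among comparisons of the same kind. Ago2 was one of them: its log2 ratio of tunicamycin over DMSO was -1.92 in the groups labelled Ago2+/+ and 1.45 in those labelled Ago2-/-, and that of Ago2-/- over Ago2+/+ was -1.96 under DMSO and 1.42 under tunicamycin. Tnrc6a was the other, with a log2 ratio of tunicamycin over DMSO of 1.04 in the groups labelled Ago2+/+ and -1.01 in those labelled Ago2-/-. The difference between these ratios was not tested, because each group has 1 pooled value. In both genes the values of Ago2+/+ tunicamycin and Ago2-/- DMSO were close to each other, and these groups form a close pair over all loci.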

How the results depend on the processing

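No paired analysis was possible because the table holds 1 pooled value per group, and for the same reason no library could be left out in turn and doubtful libraries could not be removed. No member difference past 2-fold changed its sign under any alternative, and rescaling, by TPM or by median-of-ratios size factors, turned the direction of none of the 6 members above 1 FPKM. TPM rescaling shifted the median log2 ratio of all loci by -0.18 to 0.20, since the FPKM sums ran from 561944 to 644190. The number of members past the fold, 2 for tunicamycin in Ago2+/+, was 1 under TPM. For tunicamycin in Ago2-/- it was 2, and 1 with a pseudocount of 1 or with median-of-ratios rescaling, because Tnrc6a fell just short (-0.98 and -0.999). For thapsigargin in Ago2+/+ and for the genotype labels under thapsigargin it was 0, and became 1 under TPM or without a filter, since Ago4 then entered; at 1.5-fold it was 1 and 2. At 1.5-fold it was also 2 instead of 1 for thapsigargin in Ago2-/- and 3 instead of 1 for the genotype labels under DMSO. Pathway genes past 1.5-fold numbered 9 and 7 (tunicamycin and thapsigargin in Ago2+/+), 9 and 5 (in Ago2-/-), and 9, 11 and 6 (genotype labels under DMSO, tunicamycin and thapsigargin), against 1 to 3 at 2-fold. Of the 21 nearest loci, 3 were named again with Pearson's correlation and 9 with a pseudocount of 1. Shares from loci that hold only 1 gene were the same for the Argonautes and could not be computed for TNRC6, where only Tnrc6c has such a locus. The pooled values and the conflicting labels limit every statement above.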
